A study of Mus musculus with 2 samples.

Results

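Mucins and the glycosyltransferases that build their sugar chains were examined in colonies/organoids that mouse mammary basal cells formed in the absence or presence of TNF-α. The members follow a rule on gene names, which takes the mucins (Muc), the polypeptide GalNAc-transferases (Galnt), the core 1 enzyme and its chaperone (C1galt), the branching enzymes (Gcnt), the β1,3-N-acetylglucosaminyltransferases (B3gnt), the sialyltransferases (St3gal, St6gal, St6galnac) and the fucosyltransferases (Fut). Of the 49492 genes in the deposited count table, 70 names matched and 69 were kept, because 1 antisense transcript (Galnt6os) was dropped. Of these 69 members, 55 had at least 10 counts summed over both libraries and were compared.

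Basal cells were sorted by FACS from mammary glands of adult female wild-type (WT) mice and cultured in 3D for 10 days. The control (Ctrl) library came from cells with no added cytokine, and the other from cells given recombinant mouse TNF-α at 10 ng/mL, an inflammatory cytokine that macrophages secrete. There was 1 library per condition, so no difference below has a replicate check and no p-value is given. The number of animals behind each library is not given in the sources used here. The comparison asks how the transcripts of these genes differed between basal cell cultures with and without TNF-α.

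Mucins are long proteins whose serine and threonine residues carry dense O-linked sugar chains, and epithelia display them on the apical membrane or secrete them as gels. A GalNAc-transferase starts each chain by adding N-acetylgalactosamine, the core 1 enzyme adds galactose, and branching and extension enzymes lengthen the chain. Sialic acid and fucose then cap it, and many of the capping enzymes also act on N-linked chains and glycolipids. In the mammary gland, membrane mucins line the luminal surface and are found on milk fat globules.

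The control library held 44462275 counts and the TNF-α library 53487087, and the members took 0.114% and 0.109% of them. A count of 10 was worth 0.224 and 0.187 CPM (counts scaled to the library sizes after TMM). Levels of different genes are compared as TPM, computed here from counts per kb of summed exon length. The 8 basal markers summed to 11771 CPM in the control and 10770 CPM with TNF-α, led by Krt14 at 5155 and 4871 CPM. Of these 8, 3 had a log2 ratio above 0, and the lowest was Oxtr, the oxytocin receptor of contractile basal cells, at -1.19, past 2-fold. All 11 luminal markers examined had a log2 ratio below 0, with a median of -0.84, and their summed level was 4037 CPM in the control and 2923 CPM with TNF-α. Of these 11, Prlr, Esr1 and Pgr were past 2-fold, at -1.15, -1.48 and -1.54. The 9 leukocyte markers summed to 5.86 and 4.57 CPM, with Cd3e at 0 in both, and the 4 endothelial markers summed to 7.07 and 6.67 CPM. The 5 fibroblast markers summed to 373 and 407 CPM, and 1 of them, Dcn, was past 2-fold at a log2 ratio of 1.39. In bulk RNA, fewer cells of a type and less RNA per cell cannot be told apart, and the part that cell type shares played in the values below was not tested.

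The log2 ratio sets CPM with TNF-α over CPM in the control, with a prior count of 2. Calls needed a fold of 2 in either direction (a log2 ratio past 1 or -1) and a 95% Clopper-Pearson interval of the ratio that excluded no change. The intervals cover counting error alone: they treat every read as independent, so duplicate PCR reads and variation among cultures are not included. Of the 55 members compared, 6 were called higher (10.9%), against 7.39% of all 20771 genes compared, and 5 were called lower (9.09%), against 5.89%. The median log2 ratio of the members was 0.10, beside 0.0038 for all genes compared. The middle of the family therefore lay where most genes lay, and the calls sat in single members, plotted among all genes in the display of ratio by level. By depth, 2 of 20 members with at least 1000 counts were called (10.0%, against 4.68% of 9345 genes), 5 of 21 with at least 100 but under 1000 counts (23.8%, against 14.3% of 5777 genes) and 4 of 14 with 10 to 99 counts (28.6%, against 26.4% of 5649 genes).

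**Figure D1:**
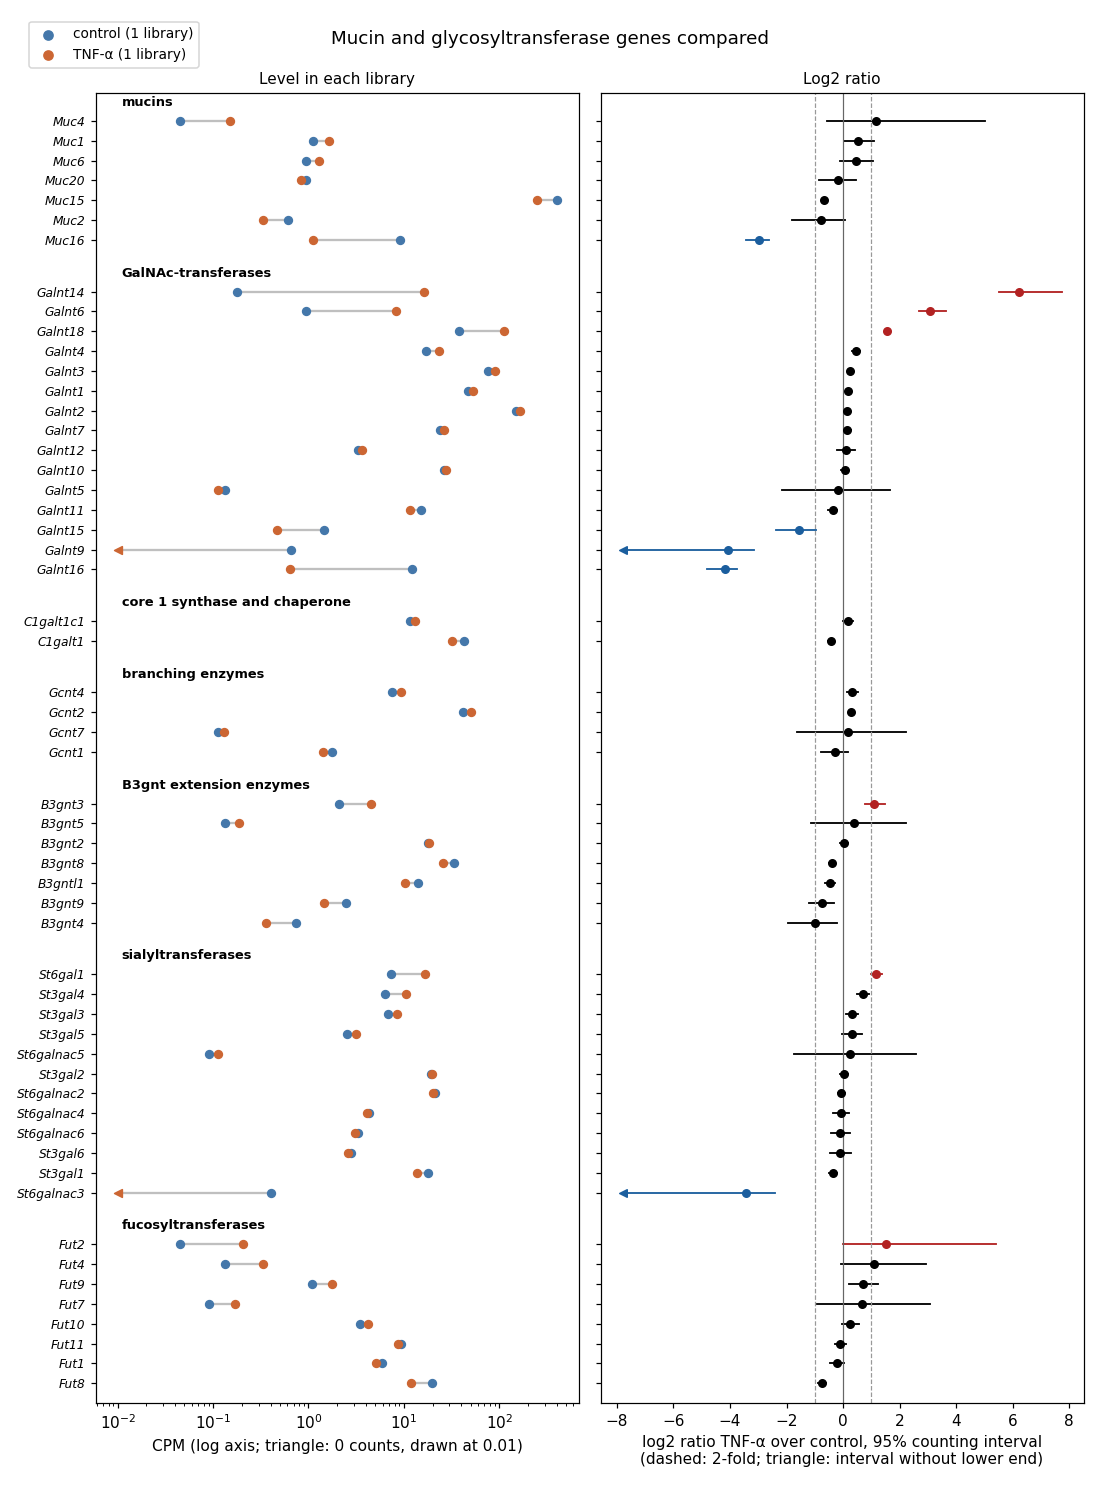
Each row is 1 of the 55 members compared. The left panel gives CPM in the control and TNF-α libraries on a log axis (a triangle stands for 0 counts) and the right panel the log2 ratio with its 95% counting interval. Red marks members called higher, led by Galnt14 at 6.22, and blue marks members called lower. The points of Galnt9 and St6galnac3, at 0 counts with TNF-α, depend on the prior count.

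**Figure D2:**
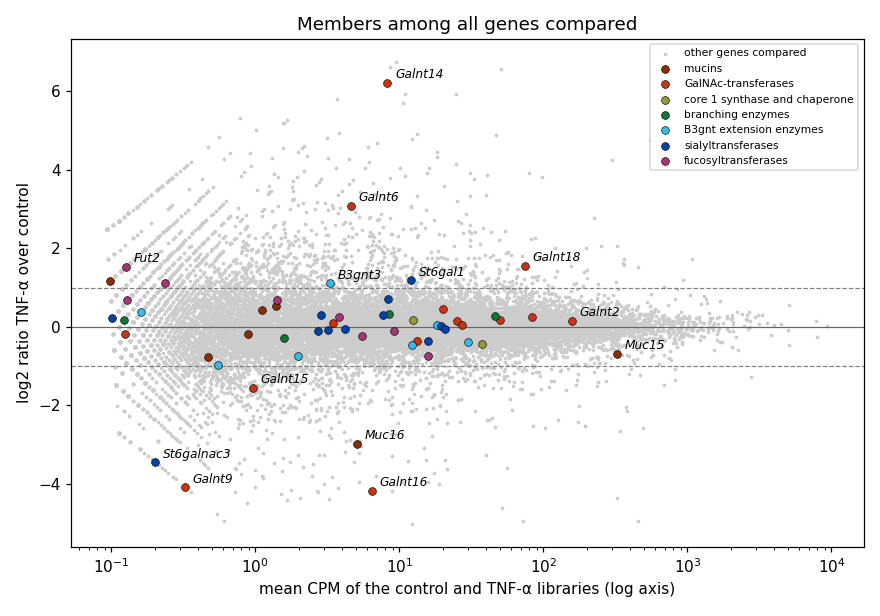
Log2 ratio (TNF-α over control) against mean CPM of both libraries (log axis) for all 20771 genes compared, with the members coloured by role. Galnt14 and Galnt16 lie near the upper and lower edge of the cloud, while Galnt2 and Muc15, the most counted enzyme and mucin, lie between the dashed 2-fold lines.

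The GalNAc-transferases held 6 of the 11 calls. Of 18 genes, 15 were compared, 3 were called higher, 3 were called lower and 9 were not called, with a median log2 ratio of 0.15. Here and in the smaller groups that follow, the counts are to be read against the 7.39% of all genes called higher and the 5.89% called lower. Galnt14, whose enzyme is known to glycosylate death receptors, lies on chromosome 17 of GRCm38 (73493228 to 73710453, minus strand). It had 8 counts in the control and 873 with TNF-α, or 0.180 and 16.4 CPM. The gene went from close to the detection limit to a level of 8.36 TPM. Its log2 ratio was 6.22 (95% interval 5.53 to 7.73), the fourth highest of the 20771 genes compared (rank 4).

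Galnt6, which belongs with Galnt3 to one branch of the family, lies on chromosome 15 (100691813 to 100729376, minus strand). It had 42 counts in the control and 442 with TNF-α, a log2 ratio of 3.08 (95% interval 2.68 to 3.63). Its relative Galnt3, known for glycosylating the hormone FGF23, had 3399 and 4846 counts and a log2 ratio of 0.25 (95% interval 0.19 to 0.32), so Galnt6 was called and Galnt3 was not. Galnt6 shares 297 exonic bases (7.67% of its exon length) with the dropped antisense transcript Galnt6os, which had 1 count in the control and 36 with TNF-α. Whether counting used the strand is not given in the sources used here, so reads in those bases cannot be assigned.

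Galnt18, on chromosome 7 (111471661 to 111779977, minus strand), had 1683 counts in the control and 5918 with TNF-α. It was the most deeply counted of the called members, and its log2 ratio of 1.55 had a narrow interval (1.48 to 1.63). Per length it went from 41.4 to 118 TPM.

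Galnt16, a close relative of Galnt14 and Galnt2, moved the other way. It lies on chromosome 12 (80518990 to 80603896, plus strand) and had 543 counts in the control and 34 with TNF-α, a log2 ratio of -4.17 (95% interval -4.80 to -3.76). Only 17 of the 20771 genes had a lower ratio (rank 18). Galnt2, the third of these relatives and the most counted GalNAc-transferase, had 6615 and 8814 counts and a log2 ratio of 0.15 (95% interval 0.11 to 0.20). Among these 3 related genes, then, 1 was called higher, 1 was called lower and 1 was not called.

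The other calls in this group rest on fewer reads. Galnt15 (chromosome 14) had 65 counts in the control and 25 with TNF-α, a log2 ratio of -1.56 (95% interval -2.37 to -0.95). Galnt9 (chromosome 5), a relative of Galnt18, had 29 counts in the control and 0 with TNF-α. After library scaling, the 29 counts lay 11.6-fold above a floor of 3 counts in the TNF-α library, a chosen value and not a lower bound. With counting error included, the 95% interval of the Galnt9 log2 ratio ended at -3.14.

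The remaining genes with a Galnt name that were compared lay between -0.37 (Galnt11) and 0.45 (Galnt4) on the log2 scale. They include the broadly expressed Galnt1 at 0.18, and Galnt7 at 0.15 and Galnt10 at 0.05, which prefer peptides that already carry sugar. Galnt13 had 0 and 8 counts, and Galntl5 and Galntl6 were at 0 in both libraries.

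The make-up of the GalNAc-transferase transcripts differed between the libraries. Per kb of exon, Galnt2 gave 36.5% of all Galnt counts in the control, followed by Galnt3 at 18.3% and Galnt18 at 15.4%. With TNF-α, Galnt18 gave 31.9%, Galnt2 28.6% and Galnt3 15.4%, so Galnt18 moved from rank 3 to rank 1. Galnt14 went from 0.0353% to 2.27%, from 14th place (rank 14) to 8th (rank 8), and Galnt6 from 0.256% to 1.59%. Galnt16 went from 3.27% to 0.12%. Without length scaling, Galnt14 took 3.04% of the Galnt counts with TNF-α (95% Clopper-Pearson interval 2.84% to 3.24%). The large fold of Galnt14 thus left it a small part of the total. The order of Galnt2 and Galnt18 with TNF-α is uncertain, since Galnt2 shares 90.0% of its exon length with the same-strand gene Gm20388, listed at 6431 and 8660 counts.

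**Figure D3:**
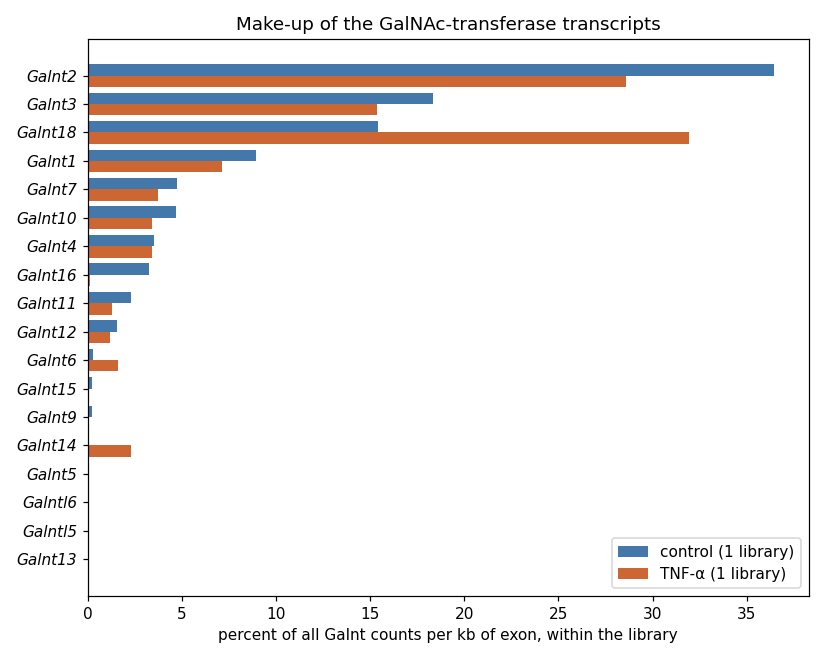
Bars give each Galnt gene's percent of all Galnt counts per kb of exon, from 1 control and 1 TNF-α library. Galnt18 went from 15.4% to 31.9% and Galnt2 from 36.5% to 28.6%, while Galnt14 and Galnt6 stayed under 3%.

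Promoter sequence is shown for the called genes with the largest increases and for the called sialyltransferase St6gal1, to show what lies before their starts. The RefSeq table of GRCm38.p6 had windows for 47 of the 69 members and for 9 of the 11 called members. The 250 bases before each start were searched on both strands for the NF-κB motif (by name, a consensus of 10 bases), for AP-1 (TGANTCA) and for the STAT element GAS (TTCNNNGAA). NF-κB acts downstream of TNF-α receptors. The NF-κB motif was in 0 of the 15 windows of called members, against 7.25% of all 32851 windows, and GAS was in 0 of 15, against 7.02%. AP-1 was in 3 of 15, those of Galnt15, Galnt16 and St6gal1, against 6.75% of all windows. A missing match says only that these letters are not in the window.

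The stretches below run 5′ to 3′ on the gene's strand and end just before the annotated start, with an AP-1 match in capitals. They are Galnt14 (chr17:73710454-73710701, minus strand, 66.1% G or C), the outer start of Galnt6 (chr15:100729377-100729626, minus strand, 72.8%) and the innermost of the St6gal1 starts (chr16:23290220-23290469, plus strand, 49.6%). Only the last holds a match, which ends 8 bases before the start and overlaps no other motif searched. That St6gal1 start lies 65730 bases inside the gene and is shown because it holds the match, while the windows of the 2 outer St6gal1 starts hold none of the 3 motifs. Gene counts do not say which of several starts was used.
Galnt14: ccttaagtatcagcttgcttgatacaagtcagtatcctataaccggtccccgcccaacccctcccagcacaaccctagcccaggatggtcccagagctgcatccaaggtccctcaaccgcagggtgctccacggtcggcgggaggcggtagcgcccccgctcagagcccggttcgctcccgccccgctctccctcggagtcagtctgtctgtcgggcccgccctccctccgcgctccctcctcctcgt
Galnt6: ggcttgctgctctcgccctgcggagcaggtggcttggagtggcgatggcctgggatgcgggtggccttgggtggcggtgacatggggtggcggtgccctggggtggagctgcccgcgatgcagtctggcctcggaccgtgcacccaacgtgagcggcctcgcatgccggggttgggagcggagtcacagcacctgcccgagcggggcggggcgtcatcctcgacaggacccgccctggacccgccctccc
St6gal1: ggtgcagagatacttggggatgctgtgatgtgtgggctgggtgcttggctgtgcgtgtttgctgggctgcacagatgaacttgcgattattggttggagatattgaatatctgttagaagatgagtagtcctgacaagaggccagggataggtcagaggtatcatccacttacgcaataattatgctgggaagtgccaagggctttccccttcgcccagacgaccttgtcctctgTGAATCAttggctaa

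Among the mucins, Muc16 was the called gene. Of 13 mucins, 7 were compared, 0 were called higher and 1 was called lower. Muc16, the very large membrane mucin whose shed form is the antigen CA125, lies on chromosome 9 (18495455 to 18674530, minus strand). It had 402 counts in the control and 59 with TNF-α, a log2 ratio of -2.98 (95% interval -3.45 to -2.63).

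Muc15, a membrane mucin of milk fat globules, made up nearly all of the mucin signal, with 96.9% of the mucin counts in the control and 97.9% with TNF-α. It had 17886 and 13326 counts, or 317 and 191 TPM. Its log2 ratio of -0.68 (95% interval -0.72 to -0.65) was well outside counting error but short of a 2-fold difference. Muc1, the classical luminal membrane mucin, had 50 and 88 counts and a log2 ratio of 0.54 (95% interval 0.04 to 1.09). The interval of Muc4 spanned no change, at 2 and 8 counts. The median luminal marker ratio of -0.84 stands beside those of Muc15 and Muc16, and its part in them was not tested.

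The gel-forming mucins ranged from 0 to 69 counts. Muc5ac was at 0 in both libraries, Muc5b and Muc19 had 2 counts each in the control and 0 with TNF-α, and Muc2 had 27 and 18 counts. Muc6 had 42 and 69 counts, with an interval that spanned no change (-0.12 to 1.05). Of 12 goblet and mucin secretion genes, 5 were at 0 in both libraries, Tff1, Tff2 and Tff3 among them. Summed over the 13 mucins, the log2 ratio was -0.70 (95% interval -0.73 to -0.67), and without Muc15 it was -1.24 (95% interval -1.45 to -1.03). That second value leans on Muc16, which gave 402 of the 572 control counts left and 59 of the 290 left with TNF-α. Of the 7 mucins compared, 3 had a log2 ratio above 0, Muc1 and Muc6 among them.

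For the core and its branches, 0 of 6 genes compared were called. C1galt1, the core 1 synthase, had 1919 counts in the control and 1704 with TNF-α, a log2 ratio of -0.43 (95% interval -0.53 to -0.34). Its chaperone C1galt1c1 (Cosmc), without which the enzyme does not fold, had 518 and 702 counts, which gave a log2 ratio of 0.18 (95% interval 0.01 to 0.35). The pair thus differed in sign, each by less than 2-fold. With all counts halved, though, the C1galt1c1 interval spanned no change (-0.06 to 0.42), so its sign is uncertain. Gcnt2, the I-branching enzyme, was the most counted branching gene with 1854 and 2694 counts and lay at a log2 ratio of 0.28 (95% interval 0.19 to 0.37). Gcnt4 lay at 0.33, and Gcnt1, the core 2 enzyme, at -0.29 with 78 and 76 counts and an interval that spanned no change. Gcnt3 had 0 and 2 counts.

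Of the B3gnt genes, 7 of 9 were compared and 1 was called higher. B3gnt3, which extends core 1 chains and serves the making of selectin ligands, lies on chromosome 8 (next to Jak3, 0.181 kb away). It had 92 counts in the control and 240 with TNF-α, a log2 ratio of 1.11 (95% interval 0.77 to 1.49). Jak3 itself had a log2 ratio of 0.27. B3gnt8 and B3gnt2, which act together on poly-N-acetyllactosamine chains, lay at -0.38 and 0.04. The lowest member was B3gnt4 at -0.98 with 33 and 19 counts, and 93.2% of its exon length is shared with Diablo on the opposite strand.

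Among the sialyltransferases, 12 of 14 were compared, 1 was called higher and 1 was called lower. St6gal1, which caps N-linked chains with α2,6-linked sialic acid, lies on chromosome 16 (23224740 to 23360350, plus strand). It had 330 counts in the control and 899 with TNF-α, a log2 ratio of 1.18 (95% interval 1.0 to 1.37). Its lower bound lay at the 2-fold mark. St6galnac3, which acts on O-linked chains and glycolipids, had 18 counts in the control and 0 with TNF-α. After library scaling, the 18 counts lay 7.18-fold above the floor of 3 counts, again not a lower bound. The 95% interval of the St6galnac3 log2 ratio ended at -2.40.

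The α2,3-sialyltransferases of the St3gal group stood closer to no change. St3gal4, known for its part in sialyl Lewis x, was the highest of them with 283 and 556 counts and a log2 ratio of 0.71 (95% interval 0.51 to 0.93). St3gal1, which caps core 1 chains, was the lowest at -0.36 with 791 and 735 counts. Summed over the 6 St3gal genes the log2 ratio was 0.07 (95% interval -0.01 to 0.14), and over the 6 St6galnac genes it was -0.09 (95% interval -0.20 to 0.02). The 2 St6gal genes, nearly all St6gal1, summed to 1.2 (95% interval 1.01 to 1.38). St6galnac2, the most counted sialyltransferase, had 946 and 1086 counts and lay at -0.06.

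All 8 fucosyltransferases were compared, and 1 was called higher. Fut8, which adds the core fucose of N-linked chains, was the most counted and the lowest of the group. It had 881 counts in the control and 631 with TNF-α, a log2 ratio of -0.74 (95% interval -0.89 to -0.59), short of 2-fold. Fut2, which makes the H antigen in secretory epithelia, was called at 2 and 11 counts. Its ratio of 4.59 had a log2 interval from 0.004 to 5.41, and the call was lost with total counts, upper quartile scaling or halved counts. Fut4 and Fut7, which complete Lewis x structures on leukocytes and elsewhere, had 6 and 18 counts and 4 and 9 counts. Fut9 had 48 and 94 counts and a log2 ratio of 0.69 (95% interval 0.19 to 1.24).

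Summed by role, counts were higher with TNF-α for the GalNAc-transferases at a log2 ratio of 0.39 (95% interval 0.36 to 0.42), the branching enzymes at 0.27 (0.19 to 0.35) and the sialyltransferases at 0.15 (0.10 to 0.21). They were lower for the core 1 pair at -0.28 (-0.36 to -0.20), the B3gnt genes at -0.22 (-0.29 to -0.15) and the fucosyltransferases at -0.31 (-0.40 to -0.21). Every one of these sums was under 2-fold. Summed counts weigh long transcripts more. Summed TPM kept each sign, with -0.12 for the core 1 pair and 0.46 for the GalNAc-transferases. Some of the count sums follow a single gene. Without C1galt1 the core 1 value became 0.18, the B3gnt value without B3gnt8 was -0.09 with an interval that spanned no change, and the fucosyltransferase value without Fut8 was 0.02. Only the most counted member was left out, which misses other genes. Among the sialyltransferases, the St6gal genes, nearly all St6gal1, summed to 1.2, while the St3gal and St6galnac sums spanned no change. Galnt18 gave 1683 of 18295 GalNAc-transferase counts in the control and 5918 of 28723 with TNF-α.

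**Figure D4:**
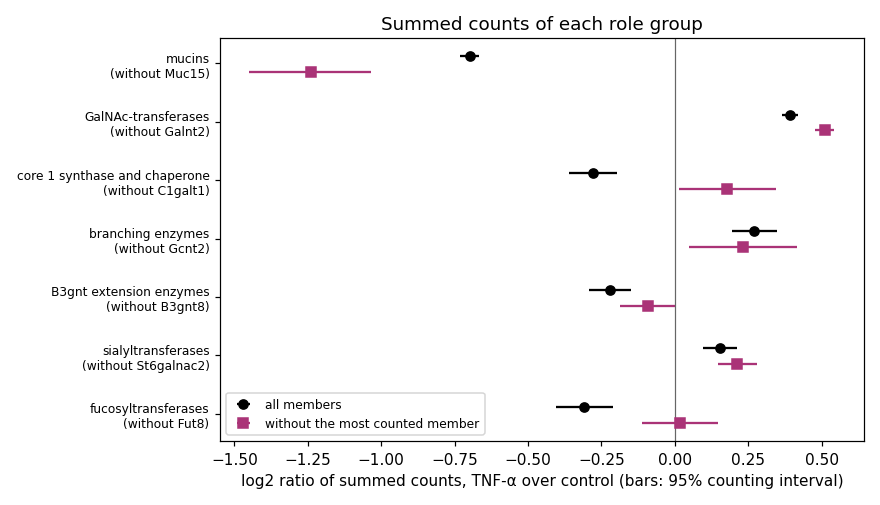
Log2 ratio of summed counts for each role group with its 95% counting interval, with all members (circles) and without the most counted member (squares). The mucins stay below 0 and the GalNAc-transferases above 0 either way, while the core 1 and fucosyltransferase sums cross 0. Without Muc15, Muc16 gave 402 of the 572 mucin counts in the control. Members other than the most counted were not left out.

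Other genes that build, trim or read glycans were taken from 7 lists. Of 98 genes in the table, 79 were compared, 5 were called higher and 6 were called lower, with a median log2 ratio of -0.05. Over all genes compared, 7.39% were called higher and 5.89% lower. Those shares are not matched to the depth of the list genes. In either direction, 26.4% of genes with 10 to 99 counts were called, and 4.68% of genes with at least 1000 counts. Whether the lists differed from genes of like depth was not tested. Most of the calls were in 1 list of 26 other chain-building enzymes, with 3 higher and 5 lower. B3galt2, a β1,3-galactosyltransferase, had 62 counts in the control and 1098 with TNF-α, a log2 ratio of 3.85 (95% interval 3.52 to 4.28), the highest of these genes. St8sia6, which adds α2,8-linked sialic acid to O-linked chains, had 1294 and 3651 counts, which gave a log2 ratio of 1.24 (95% interval 1.14 to 1.33). The third gene called higher was B4galt5 at 1.16, with 32 and 88 counts.

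The polysialyltransferase St8sia2 was lower, with 1387 and 482 counts and a log2 ratio of -1.78 (95% interval -1.94 to -1.63). Also called lower in that list were B3galt1 at -2.26, B3galnt1 at -1.91, A4galt, the Gb3 synthase, at -1.62 and B4galnt3 at -1.21. Mgat5, which makes the β1,6 branch of N-linked chains, was the only N-glycan branching gene of 6 called, with 7325 and 3376 counts and a log2 ratio of -1.38 (95% interval -1.44 to -1.32). The other 5 of that list lay between -0.12 (Mgat3) and 0.17 (Mgat2).

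Sugar supply showed no call. Of 25 genes for nucleotide sugars and their transporters, 0 passed 2-fold, from -0.78 (Uap1l1) to 0.85 (Galk1), with a median of 0.04, against background shares of 7.39% and 5.89%. Most of the 25 had at least 1000 counts, and of all genes at that depth 4.68% were called in either direction. The 3 sialidases compared lay between -0.78 (Neu2) and -0.20 (Neu3). Of 6 sulfotransferases, 0 were called, and Chst2, which sulfates N-acetylglucosamine, was the highest at 0.95 with 930 and 2157 counts. The lowest, Gal3st3, had 14 and 8 counts.

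Among the galectins and the galectin ligand Lgals3bp, 1 of 9 was called. Lgals3bp had 391 counts in the control and 2470 with TNF-α, a log2 ratio of 2.39 (95% interval 2.24 to 2.56). Lgals9 lay just under the mark at 0.96 and Lgals12 was lowest at -0.95. Of the goblet genes, Foxa3 was called at 2 and 12 counts, with a log2 interval of the ratio from 0.16 to 5.53, and Creb3l1 was lowest at -0.04. The Foxa3 call rests on 0.045 and 0.22 CPM, under the 1 CPM minimum tried as an alternative.

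**Figure D5:**
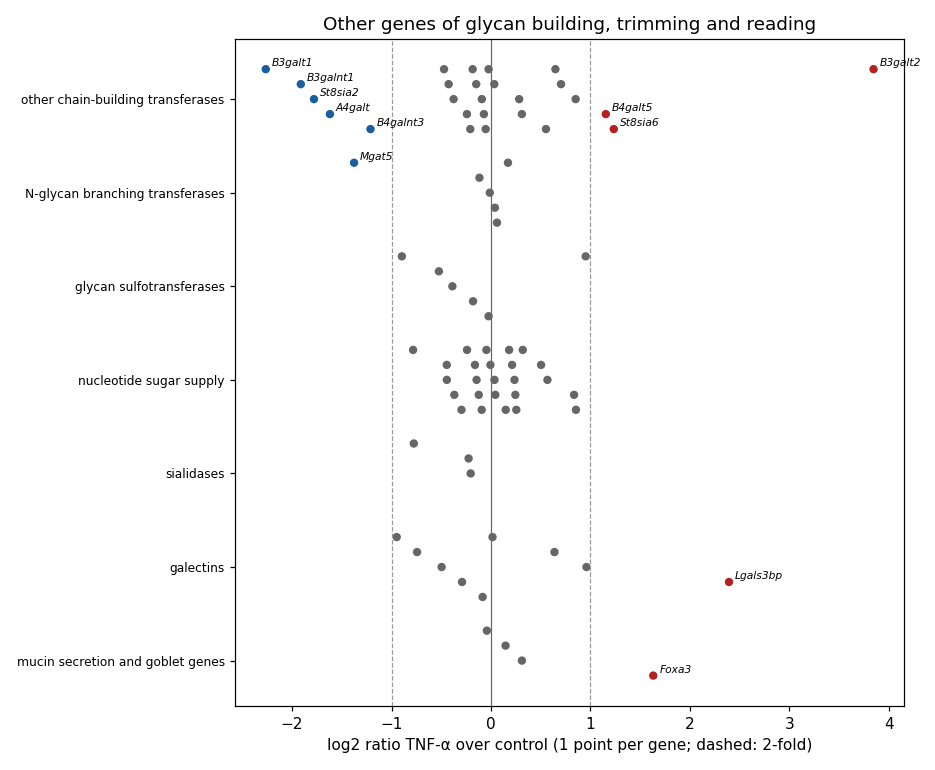
Each point is 1 gene's log2 ratio, TNF-α over control, in 7 lists of glycan pathway genes, with called genes in colour and named. B3galt2 at 3.85 and B3galt1 at -2.26 are the extremes, and the nucleotide sugar genes all lie between the dashed 2-fold lines.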

How the data were processed

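RNA-seq of 1 control and 1 TNF-α library was analysed. Per the file headers, the authors deposited read counts per gene without normalization, with the exon coordinates, strand and exon length of each gene. The submitters' processing notes name GRCm38, and 61 of the 69 members had the same chromosome, start and end in GENCODE M21. Aligner, counting tool and annotation are not given in the sources used here. More genes had 2 counts (2172) than 1 (618) in the control, so both ends of a pair may have been counted, and halved counts were tried.

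Library sizes were scaled by TMM in edgeR (4.0.16, R 4.3.3), giving an effective size for TNF-α of 1.2 times that of the control. With no replicates, quasi-likelihood fits were not possible, and calls used a fold of 2 and a 95% Clopper-Pearson interval (scipy 1.17.1). The rule was also run on simulated libraries, which held counting error alone, the error that the interval assumes. Changed genes were placed there only among well counted ones. That run therefore cannot say how the calls fare with variation among cultures, or how well changes at low counts are found. Genes needed 10 counts summed over both libraries, and 3 counts served as the floor.

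The members and gene lists were chosen with earlier results of these data known. Members named are the called ones and the most counted, highest and lowest of each role. In the other lists they are the highest, the lowest and up to 6 called genes by size of the log2 ratio. Other members and list genes were named after their values were seen. Alternatives were total counts, DESeq2 (1.42.0) size factors, upper quartile scaling, other count minimums, fold thresholds of 1.5 and 3, prior counts of 0.5 and 5, halved counts, no length scaling and, added after seeing the data, leaving out members that share most of their exons with another gene. Protein sequences were not used here.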

Additional observations from a re-analysis of the deposited data

How the results depend on the processing

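No paired analysis was possible because the design holds a single library per arm, and no replicate could be left out. Of 267 values recomputed under 12 alternatives, 255 stayed within counting error or within 1.5 times the count, and 0 of the called values changed sign. Much of this agreement was fixed in advance, since a count minimum leaves a gene's ratio unchanged and the library scalings barely differed. Halving also leaves the ratio of a well counted gene nearly unchanged. A value could stay while its call was lost, as for Fut2 with total counts, upper quartile scaling or halved counts. Requiring 1 CPM in a library left 42 members and 3 called lower, since Galnt9 and St6galnac3 were no longer compared. A fold of 1.5 gave 8 members higher and 9 lower, and 11 and 10 in the other glycan lists. A fold of 3 gave 2 members higher (Galnt14, Galnt6) and 4 lower, and 3 higher in the other lists. The share of Galnt14 was 3.04% without length scaling. Without Galnt2, B3gnt2 and B3gnt4, chosen after seeing the data because they share over 50% of their exon length with another gene, the sum was 0.51 for the GalNAc-transferases and -0.31 for the B3gnt genes. The remaining 3 values that moved were the fitted ratios of Galnt9 and St6galnac3. Calls on 10 to 99 counts, 4 of the 11, rest on little depth.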

Other observations

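Neighbours of the called members on the chromosome were also examined. Of the 22 nearest genes with at least 200 counts on either side of the 11 called members, 1 was called higher and 0 lower, beside 7.39% and 5.89% of all genes compared. That gene was Masp1, a serine protease of the lectin pathway of complement, which lies 91.4 kb after St6gal1 and had 63 counts in the control and 237 with TNF-α, a log2 ratio of 1.62. The genes on either side of Galnt14, Lclat1 and Ehd3, lay at 0.30 and -0.07, and those beside Galnt16, Exd2 and Erh, at -0.01 and 0.46. These genes were looked at after the calls were known. The shares of all genes compared include genes under 200 counts, and calls were rarer at depth. Of genes with at least 1000 counts, 4.68% were called in either direction.

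Members that lie side by side were also compared. Fut1 and Fut2 are 27.5 kb apart and had log2 ratios of -0.23 and 1.53, the latter on 13 counts. Muc6 and Muc2, which belong to the cluster of gel-forming mucins on chromosome 7, lay at 0.44 and -0.77, each with an interval that spanned no change. St6galnac4 and St6galnac6 are 0.011 kb apart and lay at -0.06 and -0.09.

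Exon sharing was common in the family. Of the 69 members, 24 shared exonic bases with another gene of the table, and among the 11 called members these were Galnt6 and St6gal1. For St6gal1 the shared part was 200 bases (4.07% of its exon length) with BC106179 on the opposite strand, listed at 36 and 73 counts.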
